A study of Mus musculus with 6 samples.

Results

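The Hedgehog genes examined here are the 3 ligands Shh, Ihh and Dhh, the receptor Ptch1, the signal transducer Smo, the ligand-binding inhibitor Hhip, and the Gli1, Gli2 and Gli3 transcription factors. They were chosen by gene symbol, without reference to their values, and make up 9 of the 53342 genes in the deposited table. All 9 passed the filter on low counts and were among the 24534 genes tested. RNA sequencing had been carried out on dental pulp from 3 WT and 3 Mmp13-/- mice (MMP13KO in the labels), all C57BL/6 and aged 3 months, to ask how loss of the collagenase MMP13 alters pulp gene expression. The knockout was homozygous, and the methods name male mice and independent biological samples. Samples are named here by their label numbers, 2, 4 and 5 for WT and 1, 2 and 6 for Mmp13-/- pulp. The labels name molars and a column kit, whereas the methods name incisors and TRIzol, and the 2 accounts could not be reconciled here. Among the sample titles, those of the WT samples name molars and those of the Mmp13-/- samples name no tooth. Whether both genotypes came from the same tooth cannot be told from the titles.

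In the absence of ligand, Ptch1 holds Smo inactive. Binding of Shh, Ihh or Dhh to Ptch1 releases Smo, which acts through the primary cilium to turn Gli2 and Gli3 from repressors or inactive forms into activators. Gli1, Ptch1 and Hhip are themselves switched on by the pathway, so their transcripts are widely used as its readout, and Ptch1 and Hhip then hold the ligand back. In teeth, Shh is produced by the dental epithelium and, in the mouse incisor, by nerves that supply the mesenchyme, where Gli1 marks stem cells. Ihh is best known from cartilage and Dhh from Schwann cells.

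Genotype split these genes into 3 groups. Transcripts of Smo, Gli1 and Gli2 were lower in Mmp13-/- pulp, those of Ihh and Hhip were higher, and those of Shh, Dhh, Ptch1 and Gli3 did not pass the test (edgeR's quasi-likelihood test, Benjamini-Hochberg adjusted p under 0.05). Hence 5 of the 9 genes passed, compared with 51.6% of all genes tested. Genes higher in Mmp13-/- pulp were 2 of 9, compared with 27.3% of all genes, and genes lower were 3 of 9, compared with 24.3%. The change exceeded 2-fold in 2 of 9 genes, Ihh and Smo, compared with 30.1% of all genes. The share of Hedgehog genes that passed was therefore close to that of the transcriptome as a whole.

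**Figure D1:**
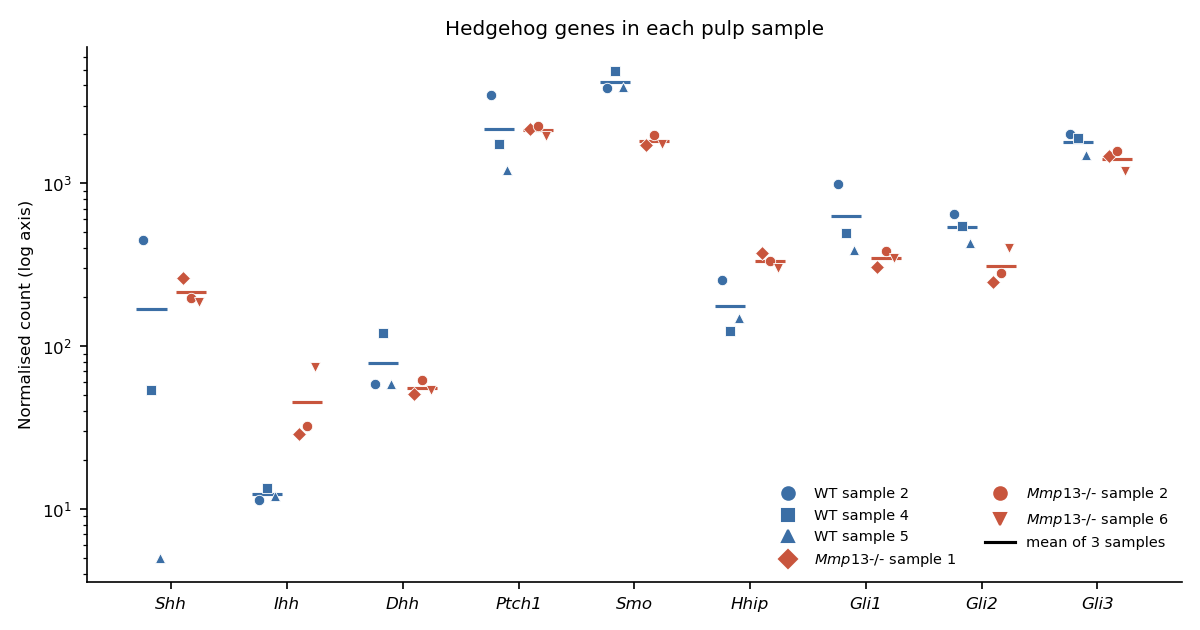
Normalised counts (log axis) of the 9 Hedgehog genes in the 3 WT samples (blue) and 3 Mmp13-/- samples (red), with a bar at each mean. The WT values of Shh span 4.99 to 449, whereas its Mmp13-/- values lie between 186 and 261; all Mmp13-/- values of Smo lie below all WT values, and all Mmp13-/- values of Ihh and Hhip lie above them.

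The libraries differed in quality between genotypes, and this touches every comparison made here. WT libraries held 28442936 to 29980236 counts and Mmp13-/- libraries 21561420 to 26547121. Reads on 13 satellite-like genes made up at most 0.0445% of a WT library but 5.87%, 10.3% and 46.1% of Mmp13-/- samples 1, 2 and 6. Odorant and vomeronasal receptor genes, which pulp is not known to use, summed to 17.9 to 20.8 CPM (a count divided by its library's total and rescaled) in WT. They summed to 308, 357 and 1198 CPM in those knockout samples, and set the background rate used here. The genotype difference also moved with GC content. Genes of mean log2 CPM above 3 were put in 10 groups by GC content. The median log2 fold change ran from 0.86 in the lowest group to -1.13 in the highest. The fold change of each of the 9 genes is therefore given beside a fit in which every sample was corrected for GC content, and low counts are given beside the background reads expected from exon length. Whether GC content, background reads or genotype accounts for a difference cannot be told apart in this design. Mmp13 itself had 826 to 1072 normalised counts (counts scaled to the mean library) in WT and 8.85 to 64.0 in Mmp13-/- pulp, a log2 fold change of -4.96 (SE 0.46; adjusted p = 7.7e-05, edgeR). Which exons were deleted is not given in the sources used here.

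The sequences just upstream of the genes that passed the test are shown, where the reference held them, because Gli factors act at promoters and enhancers of the pathway's own genes. RefSeq (GRCm38.p6) gave the 250 bases before the annotated start for 7 of the 9 genes. Those of Ihh and Hhip, which were higher in Mmp13-/- pulp, and of Smo and Gli2, which were lower, read as follows, 5′ to 3′ on the gene's strand. Capitals mark CCACCC or its reverse complement GGGTGG, the core of the known Gli recognition sequence.

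Ihh (chr1:74951673-74951922, minus strand): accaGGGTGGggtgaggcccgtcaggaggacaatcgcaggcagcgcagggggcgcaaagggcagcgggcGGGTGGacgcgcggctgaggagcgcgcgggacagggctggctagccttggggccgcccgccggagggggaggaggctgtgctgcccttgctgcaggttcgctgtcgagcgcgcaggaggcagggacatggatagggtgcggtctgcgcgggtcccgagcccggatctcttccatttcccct

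Hhip (chr8:80058009-80058258, minus strand): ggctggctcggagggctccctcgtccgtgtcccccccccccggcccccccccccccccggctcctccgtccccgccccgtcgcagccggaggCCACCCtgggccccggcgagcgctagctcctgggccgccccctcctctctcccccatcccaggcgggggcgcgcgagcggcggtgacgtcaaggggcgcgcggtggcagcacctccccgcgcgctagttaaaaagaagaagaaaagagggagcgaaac

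Smo (chr6:29735247-29735496, plus strand): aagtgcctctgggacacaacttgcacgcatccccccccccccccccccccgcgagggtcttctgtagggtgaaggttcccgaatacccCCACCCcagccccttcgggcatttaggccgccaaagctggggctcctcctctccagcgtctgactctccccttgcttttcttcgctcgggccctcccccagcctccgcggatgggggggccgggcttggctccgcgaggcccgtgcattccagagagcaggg

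Gli2 (chr1:119053620-119053869, minus strand): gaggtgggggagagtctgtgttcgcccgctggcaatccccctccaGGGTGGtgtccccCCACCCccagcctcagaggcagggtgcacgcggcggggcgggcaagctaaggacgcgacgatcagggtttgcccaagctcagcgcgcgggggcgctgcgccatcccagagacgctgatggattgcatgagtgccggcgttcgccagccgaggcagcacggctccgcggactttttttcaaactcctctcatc

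The core was matched 2 times each in the Ihh and Gli2 windows and 1 time each in the Hhip and Smo windows. In the windows of the other members, it was matched 1 time each for Dhh and Gli3, and 0 times for Ptch1. It was thus in 6 of the 7 windows, beside 28.1% of 32851 promoter windows of this length. The windows of Ptch1 and Gli3 precede RefSeq starts but lie inside the gene spans given below, which come from GENCODE annotation. The 7 windows were 59.6% to 78.4% GC, and the core is itself rich in GC. Windows of like GC content were not compared, so no excess can be read from these shares. A match is a description and not a binding site. The longer Gli recognition sequence GACCACCCA, searched on both strands, was in 0 of the 7 windows and in 0.225% of all windows. No match says only that these letters are not in this window.

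Among the ligands, Shh (ENSMUSG00000002633; chr5:28456815-28467256, minus strand, GRCm38) had the widest spread among WT samples of the 9 genes. It had 449, 53.6 and 4.99 normalised counts in WT samples 2, 4 and 5, which rest on 475, 57.0 and 5.0 estimated counts. In Mmp13-/- samples 1, 2 and 6 it had 261, 196 and 186 normalised counts. The Mmp13-/- samples were thus close to each other and lay inside the WT range, whereas the highest WT value was 89.9 times the lowest. A WT spread at least as wide was seen in 3.66% of the genes tested. Means were 169 ± 244 in WT and 214 ± 40.3 in Mmp13-/- pulp (SD, n = 3 each), a log2 fold change of 0.35 (SE 0.92) with an adjusted p of 0.775 by edgeR. This comparison was decided by WT sample 2. Without it the log2 fold change was 2.78 with an adjusted p of 0.00527 by edgeR, and without WT sample 4 or 5 it was -0.12 or -0.30. After GC correction of all 6 samples it was 0.86 (SE 1.02; adjusted p = 0.538, edgeR). Shh exons overlap those of 9530036O11Rik and Gm26894 on the opposite strand over 15.7% and 12.7% of their length, and because the use of strand in counting was not given in the sources used here, reads there cannot be told apart.

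Ihh (ENSMUSG00000006538; chr1:74945315-74951672, minus strand), the ligand of the growth plate, was the least abundant of the 9 genes in WT pulp. It had 11.4, 13.5 and 12.0 normalised counts in WT samples 2, 4 and 5, against 28.7, 32.3 and 74.8 in Mmp13-/- samples 1, 2 and 6. All Mmp13-/- values lay above all WT values, and Mmp13-/- sample 6 was the highest. Ihh rose 3.61-fold, from 12.3 ± 1.06 to 45.3 ± 25.6 normalised counts (SD, n = 3 each), a log2 fold change of 1.85 (SE 0.49) with an adjusted p of 0.00984 by edgeR. The Mmp13-/- values rest on 33.0, 35.4 and 47.2 estimated counts, where 4.59, 5.35 and 14.6 would be expected from background reads. With that background subtracted, the log2 fold change was 1.67 (adjusted p = 0.0152, edgeR). Ihh has the highest GC content of the 9 genes, 63.2%, and rose, whereas the median gene of the highest GC group had -1.13. That group held only genes of mean log2 CPM above 3. Ihh lies below that level, so genes of like abundance were not compared. The GC correction gave Ihh a larger log2 fold change, 3.16 (adjusted p = 0.00461, edgeR). Its curve was fitted to those more abundant genes, and background reads were left in, so this value is uncertain. Without Mmp13-/- sample 6, and with no GC correction, the log2 fold change was 1.31 (adjusted p = 0.0145, edgeR). In bulk tissue such as this, more or fewer cells of a type and more or less RNA per cell cannot be told apart.

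The summed level of 10 cartilage markers was lower in Mmp13-/- pulp, where Ihh was higher. The sum was 4185 to 4970 normalised counts in WT pulp. Knockout samples 1, 2 and 6 had 2554, 3028 and 2541, so that sample 6, where Ihh was highest, was level with sample 1. No marker was at 0 in all samples. Of the 9 markers tested, 2 were higher and 3 were lower in Mmp13-/- pulp, beside 27.3% and 24.3% of all genes. The cartilage collagen Col2a1 was among the markers that were lower, with a log2 fold change of -1.29 (adjusted p = 0.000328, edgeR), although after GC correction it was -0.076 (adjusted p = 0.671). After GC correction 1 marker was higher and 1 was lower, and the median log2 fold change of the list was -0.022.

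Dhh (ENSMUSG00000023000; chr15:98891152-98898540, minus strand), the Schwann cell ligand, had 58.4, 119.9 and 58.5 normalised counts in WT samples 2, 4 and 5. It had 50.9, 61.8 and 54.1 in Mmp13-/- samples 1, 2 and 6. The genotypes overlapped, and WT sample 4 stood above the other 5 samples. The log2 fold change was -0.50 (SE 0.33; adjusted p = 0.228, edgeR), from 78.9 ± 35.5 to 55.6 ± 5.60 normalised counts (SD, n = 3 each). The myelin gene Mbp was likewise highest in WT sample 4, with 2826 normalised counts there and 781 to 1214 in the other 5 samples, and the 12 Schwann cell markers summed to 10963 there and to 3662 to 5187 elsewhere. In Mmp13-/- sample 6 the Dhh count was only 1.62 times that expected from background reads. After GC correction the log2 fold change was 0.25 (adjusted p = 0.600, edgeR). Dhh exons also overlap Gm49442 on the opposite strand over 25.2% and Rhebl1 on the same strand over 12.4% of their length, so its counts are uncertain.

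The make-up of the ligand pool varied with the same samples. Per kilobase of exon, with background left in, Shh made up 90.3%, 37.3% and 9.23% of ligand counts in WT samples 2, 4 and 5. It made up 81.3%, 73.7% and 64.0% in Mmp13-/- samples 1, 2 and 6. Dhh held 7.60%, 54.0% and 70.0% in WT against 10.3%, 15.0% and 12.0% in the knockout samples. Ihh held 2.15%, 8.76% and 20.8% in WT against 8.37%, 11.3% and 24.0% in the knockout samples. Shh was therefore the leading ligand in all 3 Mmp13-/- samples and in WT sample 2, and Dhh in the other 2 WT samples. The genotype differences of 27.4, -31.4 and 3.99 percentage points for Shh, Dhh and Ihh were not beyond the spread between samples (exact permutation tests, two-sided, p = 0.4, 0.4 and 0.6, each 0.6 after adjustment over the 3 shares). With 3 samples against 3, the smallest p such a test can give is 0.1.

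Of the receptor and its partners, Smo (ENSMUSG00000001761; chr6:29735503-29761365, plus strand) showed the clearest difference. This membrane protein, which relays the signal to the cilium, had 3833, 4878 and 3914 normalised counts in WT samples 2, 4 and 5. In Mmp13-/- samples 1, 2 and 6 it had 1719, 1980 and 1749. The lowest WT sample was well above the highest Mmp13-/- sample. Smo fell 2.32-fold, from 4208 ± 581 to 1816 ± 143 (SD, n = 3 each), with a log2 fold change of -1.21 (SE 0.16) and an adjusted p of 0.000276 by edgeR. The call held when any sample was left out. After correction for GC content (57.0% for Smo), however, its log2 fold change was -0.23 (adjusted p = 0.163, edgeR).

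Ptch1 (ENSMUSG00000021466; chr13:63508328-63573598, minus strand), the ligand receptor and a target of the pathway, had 3505, 1744 and 1216 normalised counts in WT samples 2, 4 and 5. Its values were 2167, 2246 and 1960 in Mmp13-/- samples 1, 2 and 6, inside the WT range. Means were 2155 ± 1199 and 2124 ± 148 (SD, n = 3 each), and the log2 fold change was -0.021 (SE 0.32; adjusted p = 0.962, edgeR). As for Shh, the Mmp13-/- samples were tightly grouped and WT sample 2 was the highest of all 6. Without WT sample 2 the log2 fold change was 0.45 (adjusted p = 0.107, edgeR), and without both it and Mmp13-/- sample 6, a choice made after the data were seen, Ptch1 was higher at 0.57 (adjusted p = 0.0270). After GC correction it was 0.26 (adjusted p = 0.560, edgeR).

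Hhip (ENSMUSG00000064325; chr8:79965851-80058006, minus strand), which binds ligand at the cell surface and keeps it from Ptch1, had 256, 125 and 149.8 normalised counts in WT samples 2, 4 and 5. It had 373, 331 and 301 in Mmp13-/- samples 1, 2 and 6, all above the highest WT sample. Hhip rose 1.89-fold, from 177 ± 70.0 to 335 ± 36.4 (SD, n = 3 each), with a log2 fold change of 0.92 (SE 0.25; adjusted p = 0.0124, edgeR). The call was lost without WT sample 4 (0.68, adjusted p = 0.0580) or WT sample 5 (0.74, adjusted p = 0.0593). Hhip has the lowest GC content of the 9 genes, 41.5%, and after GC correction its log2 fold change was 0.34 (adjusted p = 0.257, edgeR).

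Mean counts of the 3 Gli factors were lower in Mmp13-/- pulp, past the threshold for Gli1 and Gli2, and each log2 fold change turned positive after GC correction. Gli1 (ENSMUSG00000025407; chr10:127329882-127341974, minus strand), an activator made by cells that respond to the ligand, had 992, 499 and 387.2 normalised counts in WT samples 2, 4 and 5. It had 308, 386.6 and 347 in Mmp13-/- samples 1, 2 and 6. The genotypes did not overlap, but WT sample 5 and Mmp13-/- sample 2 all but touched, and the WT mean was raised by sample 2. Gli1 fell from 626 ± 322 to 347 ± 39.5 (SD, n = 3 each), with a log2 fold change of -0.85 (SE 0.30; adjusted p = 0.0374, edgeR). The call was lost in 9 alternatives and with WT sample 2 and Mmp13-/- sample 6 both left out (-0.36, adjusted p = 0.136). These were the fits without WT sample 2 (-0.43, adjusted p = 0.0920), without Mmp13-/- sample 1 (-0.83, 0.0572) or sample 6 (-0.85, 0.0819), with upper-quartile scaling (-0.64, 0.122) or total counts (-0.74, 0.0515), with at least 10 counts in every sample (-0.73, 0.0659), with limma (-0.80, 0.107), after background subtraction (-0.76, 0.0676), and after GC correction (0.17, 0.721).

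Gli2 (ENSMUSG00000048402; chr1:118834132-119053619, minus strand), the main activator downstream of Smo, had 651, 546 and 432 normalised counts in WT samples 2, 4 and 5. It had 247, 280.2 and 399.8 in Mmp13-/- samples 1, 2 and 6. No Mmp13-/- sample reached the lowest WT sample, and sample 6 came nearest to it. Gli2 fell from 543 ± 109.6 to 309 ± 80.5 (SD, n = 3 each), with a log2 fold change of -0.82 (SE 0.22; adjusted p = 0.00967, edgeR). The call held when any sample was left out, but with upper-quartile scaling the log2 fold change was -0.60 (adjusted p = 0.0795), and after GC correction it was 0.27 (adjusted p = 0.461).

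Gli3 (ENSMUSG00000021318; chr13:15463235-15730026, plus strand), the main repressor of the pathway, had 2013, 1907 and 1491 normalised counts in WT samples 2, 4 and 5. Its values of 1473, 1579 and 1191 in Mmp13-/- samples 1, 2 and 6 overlapped with them. The log2 fold change was -0.35 (SE 0.17; adjusted p = 0.106, edgeR), from 1804 ± 276 to 1414 ± 201 (SD, n = 3 each), and 0.058 after GC correction.

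**Figure D2:**
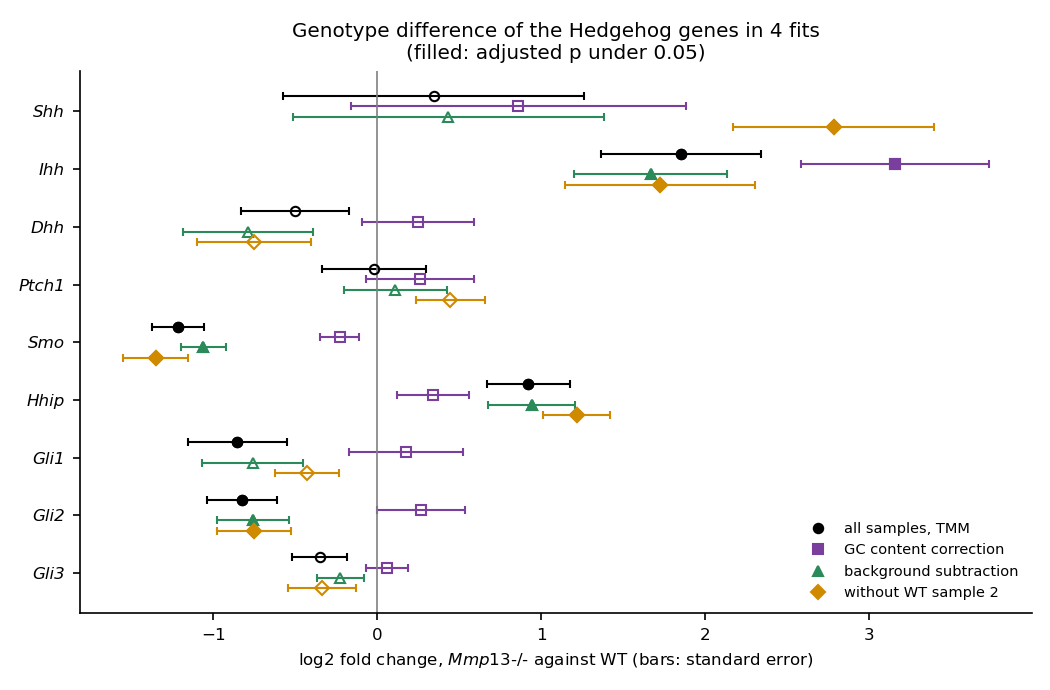
Log2 fold change of each Hedgehog gene, Mmp13-/- against WT, with its standard error, in the fit to all 6 samples, after GC correction, after subtraction of background reads, and without WT sample 2; filled symbols passed at adjusted p under 0.05. Ihh is filled in all 4 fits, Smo is filled in all but the GC-corrected fit, and Shh is filled only without WT sample 2.

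In total, the genotypes did not overlap for 5 of the 9 genes, compared with 60.9% of all genes tested. These were the same 5 genes that passed the test, 2 with all Mmp13-/- samples above all WT samples (31.8% of all genes) and 3 below (29.1%). After GC correction 1 of the 9 genes passed, compared with 35.3% of all genes. That gene, Ihh, was higher (25.6% of all genes), and 0 of 9 were lower (9.69%). With upper-quartile scaling 1 of 9, Smo, was lower, compared with 18.8% of all genes. With WT sample 2 and Mmp13-/- sample 6 both left out, 4 of 9 were higher, compared with 29.2%, namely Shh, Ihh, Ptch1 and Hhip. In the plot of log2 fold change against GC content, Hhip, which was higher, has the lowest GC content of the 9, and Smo, Gli1 and Gli2, which were lower, lie at 57.0% to 58.2%.

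**Figure D3:**
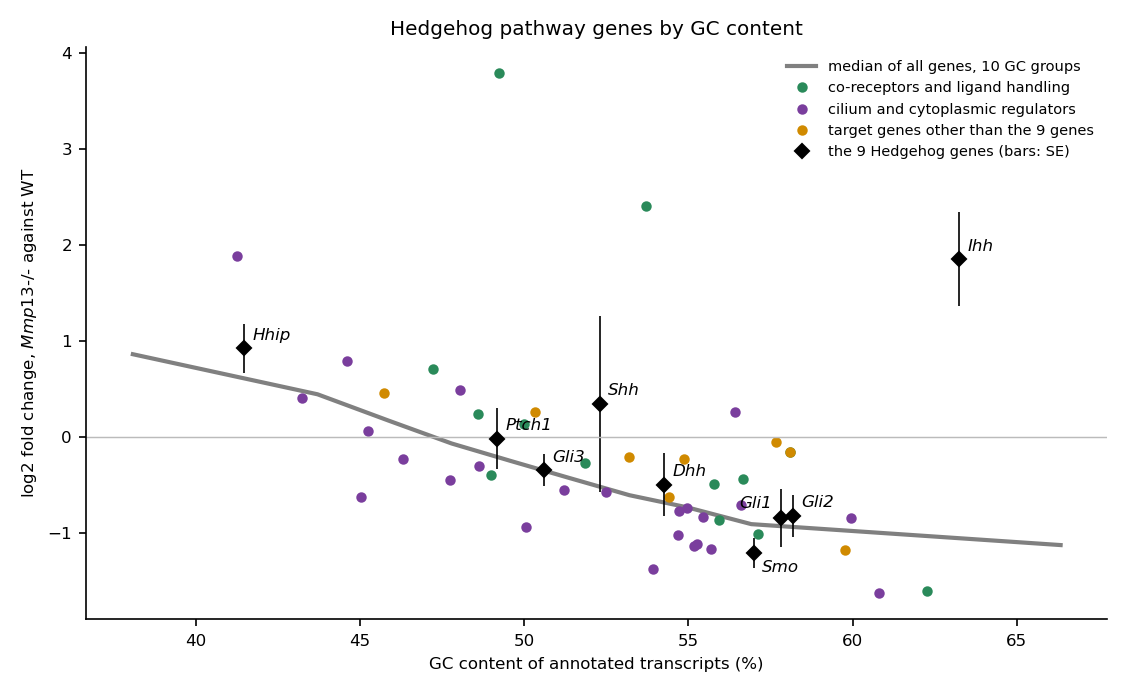
Log2 fold change, Mmp13-/- against WT, plotted against the GC content of annotated transcripts. Black diamonds are the 9 Hedgehog genes, with standard error, and coloured points are the other pathway genes. The grey line joins the medians of 10 groups of genes of mean log2 CPM above 3. The line falls from 0.86 to -1.13, and Ihh, at 63.2% GC and 1.85, stands far above it. Ihh is less abundant than the genes behind the line.

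Levels were compared between the genes per kilobase of exon. In WT pulp Smo was the most abundant, with a mean of 749 normalised counts per kilobase, followed by Gli3 (188), Ptch1 (152), Gli1 (125), Gli2 (79.1), Shh (59.4), Hhip (19.5), Dhh (17.9) and Ihh (4.04). Only Smo and Gli3, and Dhh and Ihh, were neighbours in that order whose samples did not overlap. In Mmp13-/- pulp the order was Smo (323), Ptch1 (149.8), Gli3 (147), Shh (75.3), Gli1 (69.5), Gli2 (45.0), Hhip (36.9), Ihh (14.9) and Dhh (12.6). Here the samples of Smo and Ptch1, of Gli3 and Shh, of Gli1 and Gli2, and of Hhip and Ihh did not overlap. Ihh and Dhh thus stood apart in WT pulp and not in Mmp13-/- pulp. These levels include background reads. In Mmp13-/- sample 6 the Ihh and Dhh counts were 3.23 and 1.62 times those expected from background. In WT samples both were at least 34.2 times that expected.

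Several Hedgehog genes had the same order among the WT samples. WT sample 2 was above sample 4, and sample 4 above sample 5, for 5 of the 9 genes (Shh, Ptch1, Gli1, Gli2 and Gli3), an order shared by 16.6% of all genes tested. The order was read from these same values, so the count is a description and not a test. For Gli2 and Gli3 the highest WT value was only 1.51 and 1.35 times the lowest. Spreads at least as wide were seen in 39.3% and 52.1% of the genes tested. Mycn, a proliferation gene and target, had 190, 102 and 36.2 in WT against 98.0, 84.5 and 96.2 in Mmp13-/- pulp (log2 fold change -0.23, SE 0.46; adjusted p = 0.694, edgeR; 0.53 and 0.454 after GC correction). As for Shh and Ptch1, its Mmp13-/- samples lay close together within the WT range.

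The enamel matrix genes Amelx and Enam, which ameloblasts make, had the same order among WT samples. Amelx had 42429, 11090 and 3841 normalised counts in WT samples 2, 4 and 5, against 29320, 27518 and 23231 in Mmp13-/- samples 1, 2 and 6. Enam had 9658, 2294 and 740 in WT against 14316, 12600 and 9236 in the knockout samples. Ambn, the other abundant enamel matrix gene, departed from it in part, with 57718, 21279 and 22207 in WT against 73578, 70400 and 51910 in the knockout samples. The epithelial keratins Krt5 and Krt14 ran against it and were lowest in WT sample 2, with 13896 and 36148 normalised counts there and 24073 to 26432 and 72724 to 80220 in the other WT samples. Apart from Krt14 and Ambn, these genes beyond the 9 were chosen after their values were seen, and the part that ameloblasts in the dissected tissue may have in the Shh values was not tested.

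**Figure D4:**
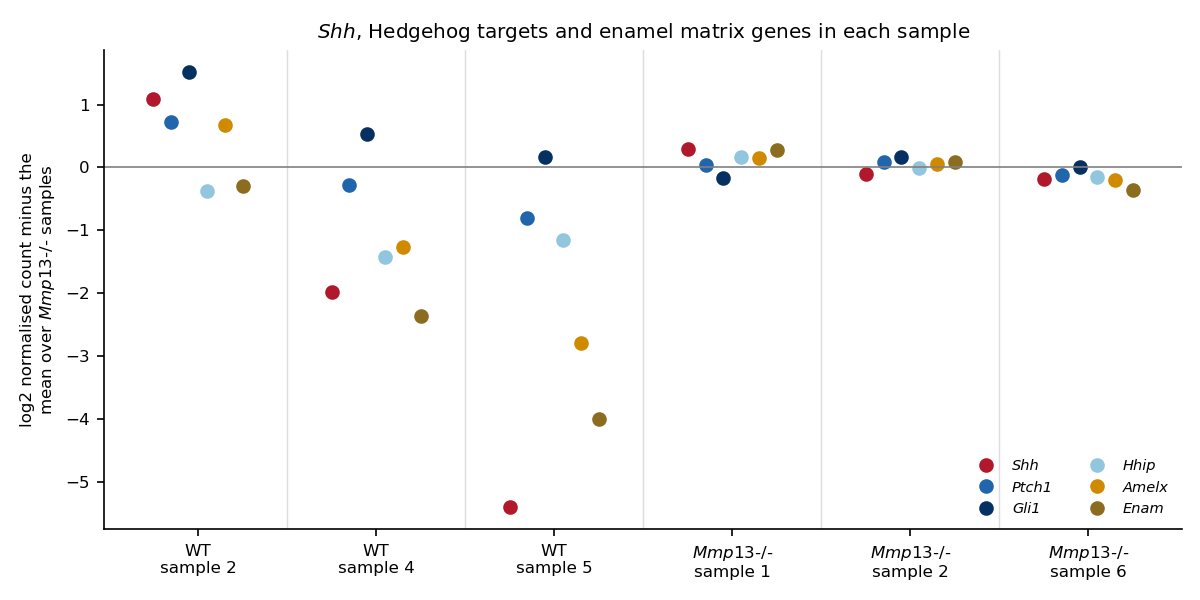
Log2 normalised count of Shh, the Hedgehog targets Ptch1, Gli1 and Hhip, and the enamel genes Amelx and Enam in each of the 6 samples, relative to each gene's mean over the Mmp13-/- samples (0). Points of the 3 Mmp13-/- samples lie close to 0. Shh, Ptch1, Gli1, Hhip, Amelx and Enam are all higher in WT sample 2 than in WT sample 5.

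Ratios within a sample do not depend on how libraries are scaled. The ratio of Gli1 to Ptch1 per kilobase was 0.804, 0.812 and 0.905 in WT samples 2, 4 and 5, against 0.403, 0.489 and 0.502 in Mmp13-/- samples 1, 2 and 6. Both genes varied more among WT samples than their ratio did, and the genotypes did not overlap (log2 difference -0.86; exact permutation test, two-sided, p = 0.1, the smallest possible, and 0.2 after adjustment over 4 ratios). The ratio of Hhip to Ptch1 was 0.114, 0.112 and 0.193 in WT against 0.269, 0.231 and 0.240 in the knockout samples. It was higher in all 3 Mmp13-/- samples (log2 difference 0.87; exact permutation test, two-sided, p = 0.1, adjusted 0.2). After GC correction the log2 differences were -0.095 for Gli1 to Ptch1 and -0.023 for Hhip to Ptch1 (exact permutation tests, two-sided, p = 0.6 and 0.9), and the genotypes overlapped.

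Between the Gli factors, the ratio of Gli1 to Gli2 was 2.10, 1.25 and 1.23 in WT samples 2, 4 and 5, against 1.71, 1.90 and 1.19 in Mmp13-/- samples 1, 2 and 6. The log2 difference was 0.087 (exact permutation test, two-sided, p = 1, adjusted 1). The ratio of Gli1 to Gli3 was 0.947, 0.502 and 0.498 in WT against 0.401, 0.470 and 0.559 in the knockout samples, a log2 difference of -0.39 (exact permutation test, two-sided, p = 0.4, adjusted 0.533). In both, WT sample 2 was the highest of the 6 and the genotypes overlapped. After GC correction the log2 differences were 0.058 and 0.24 (exact permutation tests, two-sided, p = 1 and 0.6).

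**Figure D5:**
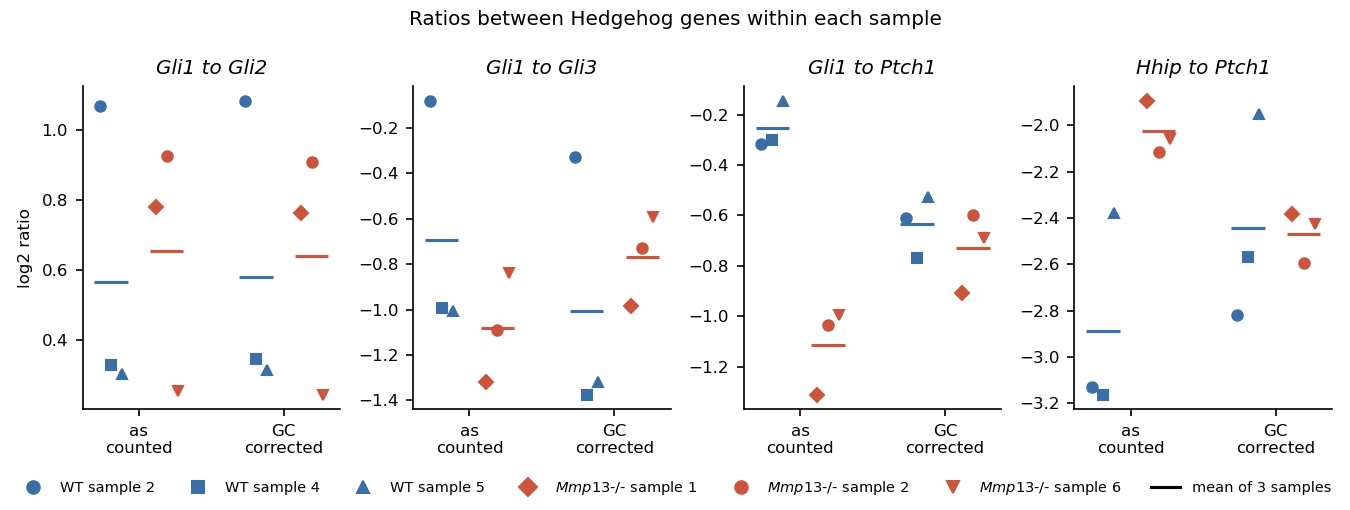
Log2 ratios of counts per kilobase between Hedgehog genes within each sample, as counted and after GC correction (blue, WT; red, Mmp13-/-; bars, means of 3 samples). The Gli1 to Ptch1 and Hhip to Ptch1 ratios separate the genotypes as counted, and overlap after GC correction, where their log2 differences are -0.095 and -0.023.

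Of the 11066 more abundant genes, Sox12, Stc2 and Kif7 had the profile over the 6 samples most like that of Gli1, with root mean square differences of 0.137, 0.140 and 0.150 on the centred log2 scale. Kif7 is itself a ciliary regulator of the Gli proteins. Sox12 and Kif7 are 59.8% and 60.0% GC, beside 57.8% for Gli1 and 49.7% for Stc2. Profiles were not compared after GC correction. Piezo2, Pxylp1 and Chka were most like Ptch1, at 0.150, 0.170 and 0.172. Gli1 itself ranked 1356 for likeness to Ptch1, at 0.444.

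The other genes of the pathway were examined in 3 lists drawn up from their known roles. Of 44 tested, 6 were higher and 22 were lower in Mmp13-/- pulp, where 27.3% of all genes were higher and 24.3% lower, and their median log2 fold change was -0.45, beside 0.10 over all genes. Proteins that present or release the ligand were mixed. Of 13, 4 were lower and 3 were higher, with a median of -0.27. The co-receptors Gas1 and Boc fell by 1.61 and 0.87 on the log2 scale (adjusted p = 0.000173 and 0.00224, edgeR), and Scube3, a secreted carrier of the ligand, by 1.01 (0.00162). All 3 calls were lost after GC correction, at -0.36, 0.043 and -0.042 (adjusted p = 0.0558, 0.872 and 0.866).

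On the other side, Disp2, a relative of the ligand exporter Disp1, rose by 2.40 on the log2 scale (adjusted p = 0.00408, edgeR), and the proteoglycan Gpc3, which competes with Ptch1 for ligand, by 0.71 (0.0220). Disp2 counts in Mmp13-/- samples 1, 2 and 6 were 4.40, 3.55 and 2.50 times those expected from background reads, and its 5.29-fold rise was 3.04-fold without sample 6. The Gpc3 call was lost without WT sample 4 or 5 or Mmp13-/- sample 1 or 2 (adjusted p = 0.0635 to 0.134) and with limma (0.0789). The endocytic receptor Lrp2 also passed at 3.79 (0.0104), but its 30.4, 48.4 and 197 normalised counts in Mmp13-/- samples 1, 2 and 6 were 1.39, 1.81 and 1.55 times those expected from background reads. With background subtracted, Lrp2 no longer passed (2.86, adjusted p = 0.0805).

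Among regulators of the cilium and of Gli processing, 16 of the 24 tested (25 were listed) fell and 2 rose, beside 24.3% and 27.3% of all genes, with a median of -0.67. After GC correction 8 were lower and 3 higher, beside 9.69% and 25.6% of all genes. Evc and Evc2, partners of Smo at the base of the cilium, fell by 1.17 and 1.14 on the log2 scale (adjusted p = 0.000217 each, edgeR). The genes that rose were Efcab7 (1.88, adjusted p = 0.000884), which anchors the Evc proteins, and Arl13b (0.79, 0.00206), a ciliary GTPase. After GC correction these were 1.25 (adjusted p = 0.0170) and 0.56 (0.0510). Sufu, the direct inhibitor of the Gli factors, and Kif7 also fell, by 0.84 and 0.85 (0.00126 and 0.00929), and are named for their role. Kif7 transcripts are 60.0% GC, in the highest GC group, whose median log2 fold change was -1.13. Values of Sufu and Kif7 after GC correction are not given here.

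Among 8 targets other than the 9 genes, 2 fell and 1 rose, beside 24.3% and 27.3% of all genes, with a median of -0.19. The mesenchymal transcription factors Foxf2 and Foxf1 fell by 1.18 and 0.63 on the log2 scale (adjusted p = 0.000262 and 0.0223, edgeR), and the survival gene Bcl2 rose by 0.46 (0.0350). The Bcl2 call was lost after GC correction (0.36, adjusted p = 0.115), with total counts, no filter or limma, and without any sample other than Mmp13-/- sample 6 (0.0566 to 0.266). The Foxf1 call was lost with upper-quartile scaling, total counts or limma (0.0633, 0.207 and 0.0553) and without WT sample 2 (0.0597) or Mmp13-/- sample 6 (0.0542). The cyclin genes Ccnd1 and Ccnd2 did not pass, at -0.21 and 0.26 (0.327 and 0.246), and are likewise named for their role.

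After GC correction, 7 of the 44 other pathway genes were higher and 8 were lower, beside 25.6% and 9.69% of all genes, and the median was 0.061 beside 0.31 over all genes. The 8 that were lower all belonged to the cilium and Gli-processing list, where Evc (-0.32, adjusted p = 0.0405) and Evc2 (-0.32, 0.0298) were still lower in the corrected edgeR fit. Foxf1 and Foxf2 were close to 0 in it, at 0.099 and 0.0086.

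Markers of cells that could lie in or beside the pulp were counted in the same way, where 27.3% of all genes were higher and 24.3% lower. Skeletal muscle markers summed to 935454 to 1146530 normalised counts in WT pulp against 177821 to 406473 in knockout pulp, with 8 of 10 lower, Acta1 (-1.88 on the log2 scale) and Myh4 (-2.21) among them. Neutrophil and erythroid markers summed to 16642 to 28677 in WT against 53927 to 114161 in knockout pulp, with 11 of 12 higher, including the haemoglobin genes Hbb-bs (3.28) and Hba-a1 (0.77). Of the odontoblast markers 4 of 10 were lower, among them the collagen genes Col1a1 (-2.16) and Col1a2 (-1.26), which hold most of the list's counts and are made by other cells too, and 3 were higher. The dentin matrix gene Dspp, named after its values were seen, was higher at 1.13 (adjusted p = 0.0370, edgeR), a call lost without WT sample 4 or 5 or Mmp13-/- sample 1 or 2 and with DESeq2 or limma.

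Of the other lists, 4 of 8 pericyte and smooth muscle markers were lower, including Des (-1.96) and Pdgfrb (-0.83), and 3 higher. Dental epithelium had 3 of 12 lower, including Krt14 (-1.33), and 0 higher, and Ambn, its most abundant marker over the 6 samples, did not pass (0.95, adjusted p = 0.0616, edgeR). Schwann cells had 3 of 11 lower, including Erbb3 (-0.71), and 1 higher, and Mbp did not pass (-0.86). The share that passed was 25% for dental epithelium and 36.4% for Schwann cells, below the 51.6% of all genes. After GC correction the split was 5 higher and 2 lower for odontoblasts, 5 and 1 for pericytes, 3 and 1 for dental epithelium, 2 and 0 for Schwann cells, 1 and 1 for cartilage, 0 and 5 for muscle and 12 and 0 for neutrophil and erythroid cells. Of all genes 25.6% were higher and 9.69% lower in that fit. Krt14 was then lost (-0.32, adjusted p = 0.420) and Ambn passed (1.09, 0.0427), as it also did with upper-quartile scaling, total counts, both other filters and background subtraction, and without WT sample 2 or Mmp13-/- sample 6. The Erbb3 and Hba-a1 calls were lost in 12 and 6 of 17 other settings. Every marker was detected in at least 1 sample. The part of these cell populations in the Hedgehog values was not tested.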

How the data were processed

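Dental pulp RNA was measured in 3 WT and 3 Mmp13-/- samples, grouped by labelled genotype. The authors deposited estimated counts per Ensembl gene, with fractions, obtained in Strand NGS. The deposited log2 values are those counts after median-of-ratios scaling, centred per gene. The submitters' processing notes name mm10 and DESeq; aligner settings and annotation release are not given in the sources used here.

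Estimated counts were rounded and tested with edgeR 4.0.16 in R 4.3.3 (quasi-likelihood, TMM factors, filterByExpr, Benjamini-Hochberg over 24534 genes). Exon length, GC content and position came from GENCODE annotation of GRCm38 (99.8% of genes matched). Background was the count per kilobase over 1451 odorant and vomeronasal receptor genes. GC correction used a loess fit (span 0.4) to genes of mean log2 CPM above 3. The curve was applied to all genes, without subtraction of background. Ratios and shares were tested exactly (scipy 1.17.1).

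Alternatives were other scaling factors and filters, DESeq2 1.42.0, limma 3.58.1 on the deposited log2 values, both corrections, scaling without satellite and the 10 most abundant genes, ratios without length, and leaving out samples. Scripts were tested on simulated data. Members and lists were chosen with earlier results of these data known. Named were all members, the 3 genes per direction and pathway list with the smallest adjusted p, the 3 genes most like Gli1 and Ptch1, and the 2 most abundant markers of each list. Exceptions were named after their values were seen. Some items that this rule names are not reported here.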

Additional observations from a re-analysis of the deposited data

How the results depend on the processing

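No paired analysis was possible because the genotypes share only replicate number 2. Over all genes tested, the median log2 fold change was 0.10, and 0.32 with upper-quartile factors, 0.21 with total counts and 0.31 after GC correction. Of all genes 6710 were higher and 5955 lower; lower genes numbered 3065 with total counts and 2378 after GC correction, and higher genes 12716 without a filter. The splits were 8169 to 4618 with upper-quartile factors, 6892 to 3065 with total counts and 6288 to 2378 after GC correction. Of the 9 Hedgehog genes, 1 was lower with upper-quartile factors, and 1 was higher and 0 lower after GC correction. With both WT sample 2 and Mmp13-/- sample 6 left out, an alternative chosen after seeing the data like the GC correction of the ratios, 4 were higher. With each sample left out, 1 to 3 were higher and 2 to 3 lower. Other pathway genes that were higher numbered 10 with upper-quartile factors, and those lower 12 with total counts and 8 after GC correction. Of the marker genes, 20 were higher and 25 lower, and after GC correction 28 were higher and 10 lower.

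GC correction reversed the log2 fold changes of Boc (0.043), Col9a2 (0.51), Dhh (0.25), Foxf1 (0.099), Foxf2 (0.0086), Gli1 (0.17), Gli2 (0.27) and Gli3 (0.058). It also reversed the differences in Gli1 to Gli3 (0.24) and Hhip to Ptch1 (-0.023). Ptch1 changed sign to 0.18 with upper-quartile factors, 0.10 with total counts, 0.10 with at least 10 counts in every sample, 0.060 with limma, 0.26 after GC correction, 0.11 after background subtraction and 0.57 with both samples left out. With both left out Col9a2 was 0.16 and the Ihh share difference -4.94 percentage points. Leaving out each sample gave ranges of -0.38 to 0.45 for Ptch1, -0.30 to 2.78 for Shh, -0.049 to 0.34 for Gli1 to Gli2 and -0.73 to 9.11 percentage points for the Ihh share. The cause was not tested. With 3 samples a genotype, and 5.0 estimated counts of Shh in WT sample 5, low-count ligands are the least precise values.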
